A study of Mus musculus with 12 samples.

Results

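Fatty acid oxidation breaks fatty acids into acetyl-CoA, and the liver turns part of that acetyl-CoA into ketone bodies for other organs. The 37 genes described here encode proteins of this route. They were taken by gene symbol from a fixed list of names, and all 37 were found among the 53599 genes of the count table. By the main site of their proteins, 20 were grouped as mitochondrial, 13 as peroxisomal and 4 as other (uptake, cytosolic binding and activation). The list covers oxidation far more than ketone synthesis: Bdh1 was the only member that acts in the ketone route itself.

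The study followed hepatocytes of the adult mouse liver as they took on features of biliary epithelial cells. All mice had a genotype given as WT and received AAV8-TBG-Cre, a viral Cre recombinase under the hepatocyte promoter TBG. A diet with 0.1% DDC (3,5-diethoxycarbonyl-1,4-dihydrocollidine), which injures the bile ducts, began 1 week later, and cells were sorted after 8 weeks of it. Every group, the reference cells included, therefore carried both the virus and the diet, and no uninjured group was analysed here. The 4 sorted populations were measured by bulk RNA sequencing, with 3 libraries each. The early group was EGFP+ Cd24- Epcam-, the intermediate group EGFP+ Cd24+ Epcam- and the full group EGFP+ Cd24+ Epcam+, all of them marked as hepatocyte derived. The fourth group, BEC, was EGFP- Epcam+ and holds biliary epithelial cells without the mark. The labels give no reporter allele, age or sex, and they do not say whether the libraries of a group came from separate animals. The p-values below therefore measure the spread between these libraries, which may be technical.

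In mitochondrial oxidation, a fatty acid is bound, activated to an acyl-CoA, carried into the mitochondrion as a carnitine ester and shortened by a repeated cycle of dehydrogenation, hydration, a further dehydrogenation and thiolysis. Peroxisomes run a similar cycle that begins with an oxidase and handles very long, branched and bile acid side chains. Hepatocytes are rich in both systems, and many of the genes are known targets of the fatty acid receptor PPAR alpha.

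Total counts lay between 15112893 and 19731887 per library, and 16210 genes passed the filter on low counts. Levels are given as CPM, counts scaled to a common library size after TMM scaling, a set of factors that centres most genes between libraries. Those factors were 0.652 to 0.672 in the early libraries and 1.03 to 1.22 in the others, so directions at the first step depend on the scale, as shown at the end. The summed CPM of 9 hepatocyte markers was 96950 to 101500 in early and 2021 to 2671 in BEC libraries, and that of 9 biliary markers rose from 1028 to 1952 in early to 14950 to 18120 in BEC. Albumin was still at 1650, 1422 and 1888 CPM in the 3 BEC libraries. Of 10 macrophage markers, 8 stayed under 10 CPM in every library, and their sum went from 24.9 to 26.9 in early to 133 to 158 in BEC, mostly Csf1r. The sum of 7 stellate cell and fibroblast markers was 95.2 to 272 CPM in early and 49.1 to 86.5 in BEC. Of 5 erythroid markers, 4 stayed under 1 CPM in every library, and Alas2 went from a mean of 24.3 CPM in early to 0.819 in BEC. Mitochondrially encoded genes took 11.4% of the counts in early replicate 2, against 6.0% and 5.45% in the other early libraries and 2.20% to 4.75% elsewhere. In such bulk libraries, fewer cells with a transcript and less transcript per cell cannot be told apart.

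Promoter sequences are shown first for the members whose expression or gene arrangement stands out in what follows. Windows of 250 bases before to 50 after the start site came from RefSeq (build GRCm38.p6, coordinates of that build) and were found for 34 of the 37 members, 38 windows in all. They were searched on both strands for AGGTCANAGGTCA, the direct repeat with a 1-base spacer that PPAR alpha and its partner RXR are known to bind. No member window held it without mismatch, against 0.0396% of all 32851 windows. With at most 1 mismatch it was in the Fabp1 window alone (2.63% of member windows against 0.554% of all). With at most 2 mismatches it was in the windows of Acox2, Cd36, Echs1, Etfa, Fabp1 and Slc25a20 (15.8% against 3.86%). A match is a run of letters and shows no binding. Below, Fabp1, the member with the steepest fall, and Slc25a20, the mitochondrial carnitine carrier, have their match in capitals. In Fabp1 it lies 67 to 55 bases before the start site and reads on the opposite strand, and in Slc25a20 it lies 6 to 18 bases after the start site, where the transcript has begun.
Fabp1, chr6:71199629-71199878, plus strand: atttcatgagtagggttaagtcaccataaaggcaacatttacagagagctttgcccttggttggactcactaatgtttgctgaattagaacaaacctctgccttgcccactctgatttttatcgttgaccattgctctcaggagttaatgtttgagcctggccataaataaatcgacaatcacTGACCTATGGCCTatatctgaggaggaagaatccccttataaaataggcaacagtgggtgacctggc
Slc25a20, chr9:108661886-108662165, plus strand: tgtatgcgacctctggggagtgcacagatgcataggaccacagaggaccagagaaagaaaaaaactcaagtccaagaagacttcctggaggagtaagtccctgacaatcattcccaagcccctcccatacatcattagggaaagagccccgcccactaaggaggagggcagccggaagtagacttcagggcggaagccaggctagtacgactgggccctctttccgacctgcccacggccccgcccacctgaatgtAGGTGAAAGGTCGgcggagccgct
Hadha and Hadhb, which encode the subunits of the mitochondrial trifunctional protein, are transcribed away from each other, and their promoter windows share 228 bases. The Hadhb start site is at position 30155253 of chromosome 5, and the 74 capitals run from position 30155180 to it. The capitals do not mark the start site of Hadha.
Hadhb, chr5:30155150-30155283, plus strand: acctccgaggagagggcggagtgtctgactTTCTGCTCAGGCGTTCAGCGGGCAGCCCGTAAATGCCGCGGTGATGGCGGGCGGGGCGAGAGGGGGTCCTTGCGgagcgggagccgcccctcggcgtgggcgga
Acaa1a and Acaa1b encode peroxisomal thiolases. Their longest protein-coding transcripts (GENCODE M21) are 96.0% identical over 1450 aligned bases, yet their promoter windows, 183701 bases apart on chromosome 9, shared no run longer than 8 bases. They are printed because these near-identical genes had very different levels.
Acaa1a, chr9:119341044-119341293, plus strand: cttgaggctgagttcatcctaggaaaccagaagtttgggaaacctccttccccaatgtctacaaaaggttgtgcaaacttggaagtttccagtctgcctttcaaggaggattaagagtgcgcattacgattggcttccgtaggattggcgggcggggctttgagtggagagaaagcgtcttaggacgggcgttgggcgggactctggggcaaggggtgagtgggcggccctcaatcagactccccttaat
Acaa1b, chr9:119157094-119157343, minus strand: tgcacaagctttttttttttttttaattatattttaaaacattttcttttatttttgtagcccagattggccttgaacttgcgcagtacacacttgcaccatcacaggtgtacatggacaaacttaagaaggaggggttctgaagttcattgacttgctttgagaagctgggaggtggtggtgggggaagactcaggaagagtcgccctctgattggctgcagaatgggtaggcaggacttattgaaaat

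The summed counts of the members were a smaller share of each library at each stage further from the hepatocyte. The 37 members together took 0.834%, 0.724% and 0.895% of all counts in the early libraries, 0.562%, 0.572% and 0.573% in intermediate, 0.364%, 0.336% and 0.353% in full, and 0.310%, 0.290% and 0.296% in BEC. The groups did not overlap. A share of all counts is itself a scaling by total counts, and abundant members weigh most in it. Scp2 alone took 0.142% to 0.199% of counts in early and 0.0538% to 0.0635% in intermediate libraries, and the other 36 members 0.582% to 0.695% and 0.508% to 0.516%. On that scale 9 of the 37 members had positive values at the first step, 6 of them called higher. All 37 members passed the filter, and 36 of them differed among the 4 groups (edgeR's quasi-likelihood F test, adjusted over all genes), where 75.6% of all genes tested did. The exception was Acox3.

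**Figure D1:**
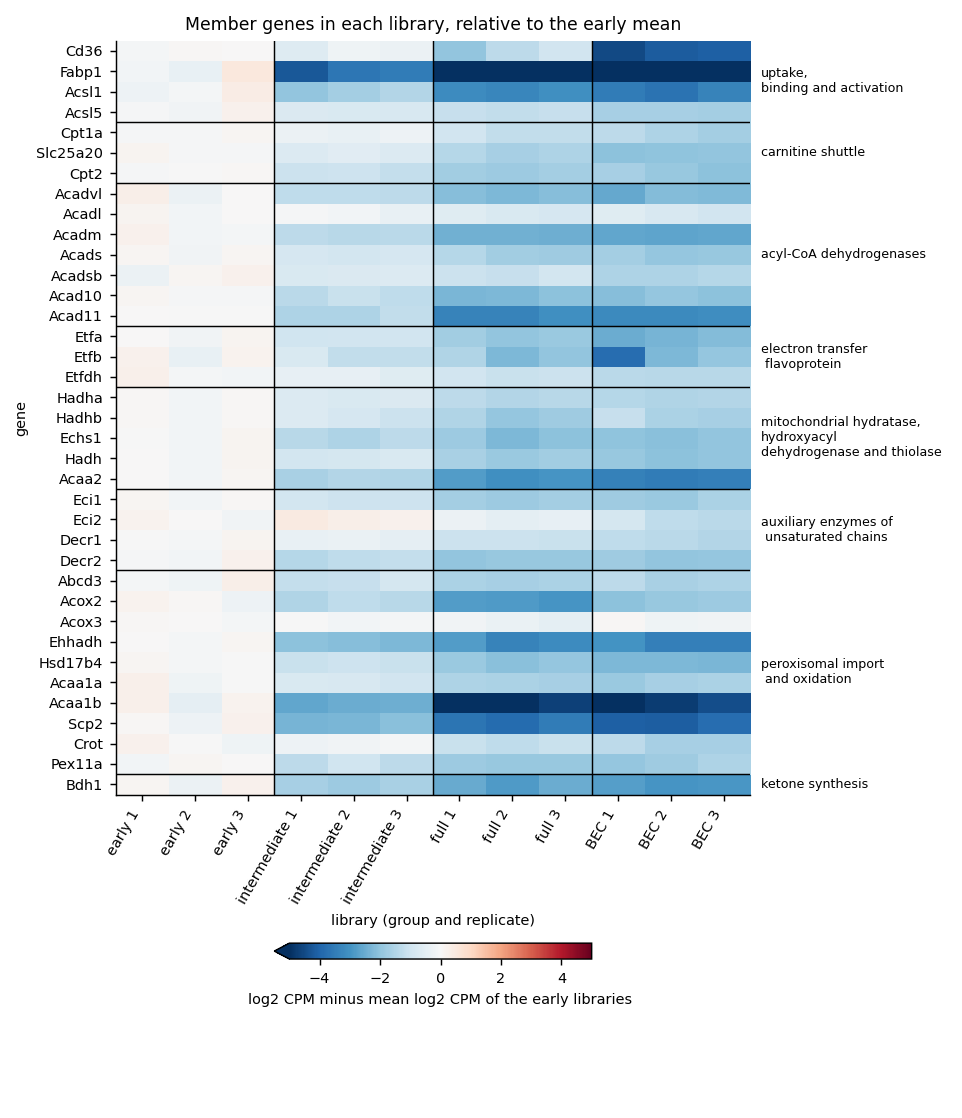
Each row is 1 of the 37 members in the order of its role, each column 1 of the 12 libraries, and the colour is log2 CPM minus the mean of the early libraries. Blue deepens from intermediate to full in most rows, Acox3 stays near white throughout, and Eci2 is faintly red in the 3 intermediate libraries on the TMM scale.

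Between early and intermediate, the step at which Cd24 appears, 32 members were called lower and 1 higher (adjusted p under 0.05), against 25.7% of all genes tested called lower and 28.7% higher. The member median log2 fold change was -1.08, against 0.06 for all genes tested. Between intermediate and full, the step at which Epcam appears, 35 members were called lower and all 37 values were negative, where 19.8% of all genes were called lower and 20.8% higher. The member median was -0.86 against 0.01. BEC against full gave 12 members lower and 1 higher, with 10.6% of all genes lower and 10.7% higher, and a member median of -0.21 against 0.00. Across the whole distance, BEC against early, 36 members were called lower and all 37 values were negative, where 33.0% of all genes were called lower and 40.0% higher. The member median was -1.93 against 0.14. These comparisons share libraries and are not independent of each other. Lower at both steps and not called after that was the pattern of 21 members, and 9 were lower in each of the 3 comparisons.

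Uptake, binding and activation held Fabp1, the member with the largest change between BEC and early, and Cd36, whose largest change lay between full and BEC. Fabp1, the abundant cytosolic fatty acid-binding protein of hepatocytes, had 392, 333 and 627 CPM in the early libraries, 22.9, 35.4 and 38.3 in intermediate, 2.81, 3.35 and 8.75 in full and 0.674, 4.57 and 9.41 in BEC. The early and intermediate libraries did not overlap with any later group, while full and BEC overlapped, with BEC replicate 1 lowest. Its log2 fold change was -3.80 ± 0.54 (SE) at the first step and -2.70 ± 0.57 at the second, with adjusted p of 4.65e-05 and 0.00177 (edgeR). Within BEC the Fabp1 values ran in the same order as those of the hepatocyte transcript Apoa1, at 48.1, 75.6 and 125 CPM in the same libraries, but not as those of albumin given above. The part of hepatocyte transcripts carried into BEC libraries in the Fabp1 level was not tested.

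Cd36, a membrane protein that takes up long-chain fatty acids, had 220.4, 246 and 233 CPM in early and 147, 199 and 192 in intermediate libraries. It was at 59.8, 93.2 and 118 CPM in full and 10.1, 12.9 and 13.5 in BEC. No group overlapped with its neighbour, and the widest gap was between full and BEC, 7.42-fold. The first step was not called (log2 -0.38, adjusted p = 0.12, edgeR), but was with the replicate number as a block (-0.40, adjusted p = 0.0146), in a fit of the 6 libraries of these groups (-0.38, adjusted p = 0.0314) and without full replicate 1 (-0.37, adjusted p = 0.0395). With total counts alone the value turned positive (0.29). The second step gave -0.99 ± 0.20 and BEC against full -2.89 ± 0.22 (adjusted p = 6.88e-07, edgeR). Endothelial cells also express Cd36: the summed level of 8 endothelial markers was 15.7 to 27.5 CPM in early, 8.55 to 19.7 in intermediate, 3.53 to 6.34 in full and 3.23 to 8.82 in BEC, ranges that overlap between full and BEC, and 7 of the 8 were under 10 CPM in all libraries.

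The synthetases that activate long-chain fatty acids differed in size of change. Acsl1, the main hepatocyte form, was at 321, 363 and 495 CPM in early, 97.5, 118 and 140.4 in intermediate, 43.2, 40.5 and 45.4 in full and 34.4, 29.6 and 38.4 in BEC. It fell, with log2 changes of -1.73 and -1.46, at the successive steps. BEC against full was not called for Acsl1 in the model of 12 libraries, but was with the replicate block, at -0.34 (adjusted p = 0.0385, edgeR), and in a fit of the 6 libraries of these groups (-0.35). Acsl5 went from 398 ± 53.8 CPM to 234 ± 3.82, 176 ± 5.78 and 124 ± 1.83 (SD, n = 3 each). It was called lower in each of the 3 comparisons, with values of -0.77, -0.41 and -0.50. With total counts alone its first-step (-0.10) and second-step (-0.21) calls were lost.

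The carnitine shuttle moves activated fatty acids into the mitochondrion. Cpt1a, the liver carnitine palmitoyltransferase of the outer mitochondrial membrane and the main control point of entry, had 535, 532 and 592 CPM in early, 448, 423 and 457 in intermediate, 285, 238 and 237 in full and 222, 189 and 169.9 in BEC. The groups followed each other without overlap. The first step was small, -0.32 ± 0.11 (adjusted p = 0.0272, edgeR). That call was lost without early replicate 3 (-0.26), intermediate replicate 1 (-0.32) or intermediate replicate 2 (-0.29) and without the filter (-0.28), and total counts alone turned it to 0.34. The second step was larger, -0.81 ± 0.11 (adjusted p = 7.47e-05, edgeR). BEC was lower than full (log2 -0.39), a call that was lost without full replicate 1 (-0.30), BEC replicate 2 (-0.37) or BEC replicate 3 (-0.30).

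Slc25a20, which exchanges acylcarnitine for carnitine across the inner membrane, went from 103 ± 7.41 CPM to 65.5 ± 3.72, 35.1 ± 3.03 and 25.2 ± 0.517 (SD, n = 3 each). It was lower at the first step (-0.65) with TMM, where total counts alone gave 0.016, then again at the second (-0.90) and in BEC against full (-0.48). Cpt2, which rebuilds the acyl-CoA inside, went from 120.1 ± 5.62 CPM to 56 ± 3.07, 35.6 ± 1.45 and 33.2 ± 4.57. Unlike Cpt1a, its larger change with TMM was the first, -1.10 ± 0.10 against -0.65 ± 0.10, a difference between steps that was not itself tested. With total counts alone the first step of Cpt2 was -0.43, so its size depends on the scale.

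**Figure D2:**
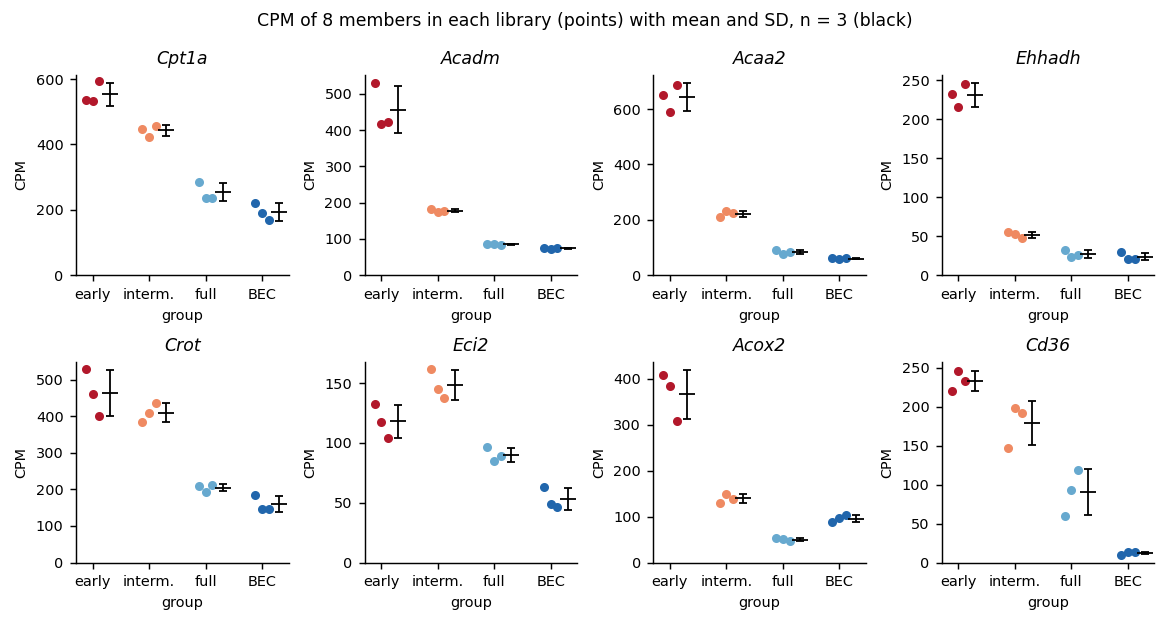
CPM of 8 members in each library (points) by group, with the mean and SD of 3 libraries in black and each axis starting at 0. Cpt1a and Crot keep most of their early level in intermediate, Acadm, Acaa2 and Ehhadh lose more than 2-fold there on the TMM scale, Eci2 is highest in intermediate, Acox2 is lowest in full, and Cd36 drops 7.42-fold between full and BEC.

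The acyl-CoA dehydrogenases open each turn of the mitochondrial cycle, and each acts on its own range of chain lengths. Acadm, the medium-chain enzyme, had 531, 418 and 423 CPM in early, 182, 174 and 177 in intermediate, 85.8, 86.9 and 83.8 in full and 74.5, 72.6 and 74.7 in BEC. Early replicate 1 was the highest of its group, the later groups were tight, and no groups overlapped. It fell, with changes of -1.36 ± 0.10 and -1.06 ± 0.10 (log2, SE) at the successive steps and was 6.18-fold lower in BEC than in early. Acadl, the long-chain enzyme, moved far less, with 276, 227 and 251 CPM in early, 242, 226 and 196 in intermediate, 163, 147 and 142 in full and 164, 144 and 128 in BEC. Early overlapped with intermediate and full with BEC, so a single gap remained, between intermediate and full (-0.56 ± 0.12, adjusted p = 0.00172, edgeR). Over the whole distance Acadl was 1.73-fold lower, and with total counts alone this value turned to 0.078.

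Of the other chain-length enzymes, Acadvl (very long chains) was lower by 4.99-fold and Acads (short chains) by 3.6-fold in BEC than in early. In the annotation used here (GENCODE M21), 42.9% of the exonic bases of Acadvl also lie in exons of Dvl2 on the opposite strand, so its counts are uncertain. Acadsb, which acts on short branched chains from isoleucine, went from 109 ± 18.4 CPM to 65.6 ± 1.41, 52.5 ± 4.43 and 38.4 ± 1.72 (SD, n = 3 each). Its second step of -0.32 passed narrowly (adjusted p = 0.0344, edgeR). That call was lost in DESeq2 (-0.28), without the filter, with the median-of-ratios factors or total counts, and without any 1 of the intermediate libraries or full replicates 1 and 2 (-0.34 to -0.28). BEC was lower than full (log2 -0.45), which was not called without full replicate 3 (-0.38). Acad11, a peroxisomal enzyme of long chains, had the largest fall of this class, from 276, 272 and 271 CPM in early to 92.5, 93.4 and 115 in intermediate and 26.6, 26.6 and 32.1 in full, with BEC at 29.9, 29.7 and 32. Full and BEC overlapped and every earlier group stood clear. Acad10, a less studied member of the family, was 4.15-fold lower in BEC than in early.

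Electrons from these dehydrogenases pass to the electron transfer flavoprotein, a dimer of the Etfa and Etfb products, and then to ubiquinone through the Etfdh enzyme. Etfa had 316, 273 and 341 CPM in early, 157, 161 and 161 in intermediate, 91.7, 78.9 and 85.8 in full and 54.6, 61.5 and 69.1 in BEC, without overlap between groups. It was called lower in all 3 comparisons (-0.96, -0.90 and -0.47). Etfdh was lower at the first step (-0.49) with TMM, where total counts alone gave 0.18, and at the second (-0.58). For BEC against full its adjusted p was 0.0491 (edgeR, log2 -0.31). That call was lost when any 1 library other than early replicates 1 and 3 was left out (-0.34 to -0.27), without the filter, with a mean of at least 50 counts or with median-of-ratios factors. Etfb was counted low and unevenly, from 33.5, 22.6 and 32.9 CPM in early to 1.98, 6.01 and 7.54 in BEC, where replicate 1 was lowest. Of its exonic bases, 53.0% lie in exons of Gm45233 on the same strand, so this value is uncertain, and its first-step call (-1.09, adjusted p = 0.0141, edgeR) was lost without intermediate replicate 2 (-1.01). Its second step was called only without the filter (-0.80), in a fit of 6 libraries (-0.81) or without BEC replicate 1 (-0.81), and BEC against full only without the filter (-0.64).

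The rest of the mitochondrial cycle fell at both steps for all 5 genes. Hadha and Hadhb, the divergent pair printed above, changed by similar amounts. Hadha went from 464 ± 32.8 CPM to 278 ± 5.89, 176 ± 8.58 and 166 ± 4.11, and Hadhb from 208 ± 15.3 to 114 ± 15, 62.7 ± 9.42 and 76 ± 15.7 (SD, n = 3 each). Their changes were -0.74 and -0.86 at the first step and -0.66 and -0.87 at the second, and full overlapped with BEC for both. With total counts alone the first-step calls of Hadha (-0.073), Hadhb (-0.20) and Hadh (-0.19) were lost. Echs1, the short-chain hydratase, fell at the first step (-1.42) and the second (-0.62). Hadh, the dehydrogenase of shorter chains, fell, with changes of -0.86 and -0.88, and was called lower again in BEC with the replicate block (-0.23, adjusted p = 0.0470, edgeR) and in a fit of the 6 libraries of full and BEC (-0.25).

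Acaa2, the mitochondrial thiolase that releases acetyl-CoA, had the largest fall of the mitochondrial members, with 652, 591 and 688 CPM in early, 211, 231 and 224 in intermediate, 92.2, 76.5 and 82.3 in full and 61.7, 57.4 and 60.6 in BEC. Each group stood clear of the next. The changes were -1.53 ± 0.10, -1.41 ± 0.10 and -0.48 ± 0.10, all called (adjusted p = 2.49e-08, 1.73e-07 and 0.00221, edgeR), and BEC was 10.8-fold below early.

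Unsaturated chains need auxiliary enzymes that move or reduce double bonds. Eci1, a mitochondrial isomerase, fell, with changes of -1.0 and -0.73 at the successive steps. Eci2, an isomerase found in peroxisomes and mitochondria, took another course, with 132, 118 and 104 CPM in early, 162, 146 and 138 in intermediate, 96.5, 84.6 and 89.1 in full and 63.3, 49.1 and 46.3 in BEC. All 3 intermediate libraries were above all early ones, and full and BEC libraries were below both. It was the only member called higher at the first step (0.33 ± 0.12, adjusted p = 0.0379, edgeR). That call was lost in DESeq2 (0.29), with median-of-ratios factors (0.27), and without early replicate 2 (0.32) or 3 (0.25) or intermediate replicate 1 (0.27) or 2 (0.34). The falls that followed, -0.72 ± 0.12 and -0.77 ± 0.13, were called in every fit run. Decr1 and Decr2 reduce dienoyl-CoA in mitochondria and peroxisomes. Decr1 fell at the first step (-0.38) with TMM, where total counts alone gave 0.28, and at the second (-0.71), while Decr2 fell, with changes of -1.31 and -0.62. BEC was lower than full for Decr1 (log2 -0.27), not called without the filter (-0.30) or without intermediate replicate 2, any 1 full library or BEC replicate 2 or 3 (-0.29 to -0.23).

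Among peroxisomal members, changes between BEC and early ran from -4.77 for Acaa1b to -0.11 for Acox3. Scp2, which encodes a lipid carrier and a thiolase of branched chains, was the most abundant member per length of transcript in early libraries, with 2706, 2165 and 2969 CPM in early, 512, 536 and 616 in intermediate, 208, 181 and 227 in full and 154, 149 and 183 in BEC. It fell, with changes of -2.24 ± 0.14 and -1.43 ± 0.14, and full overlapped with BEC. BEC against full was not called for Scp2 in the model of 12 libraries, but was with the replicate block (-0.34, adjusted p = 0.0114, edgeR), without the filter (-0.37) and in a fit of the 6 libraries of these groups (-0.36). Ehhadh, the bifunctional enzyme of straight chains, had 232, 216 and 246 CPM in early and 55.5, 52.5 and 48.1 in intermediate libraries. It then had 32.9, 22.8 and 26.2 CPM in full and 29.3, 21.4 and 21.4 in BEC, so that most of its fall lay in the first step (-2.15 ± 0.14 against -0.93 ± 0.14). Hsd17b4, the bifunctional enzyme of branched chains and bile acid precursors, fell, with changes of -1.10 and -0.86. BEC was lower than full (log2 -0.29), not called without the filter (-0.33) or without full replicate 1 or 3 or BEC replicate 2 or 3 (-0.31 to -0.25).

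The thiolases Acaa1a and Acaa1b parted. Acaa1b had 488, 299.8 and 461 CPM in early, 66.5, 72.7 and 75.7 in intermediate, 12.2, 12.5 and 16.1 in full and 11.8, 15.2 and 18.7 in BEC. Acaa1a had 361, 259 and 298 CPM in early, 176, 173 and 158 in intermediate, 103, 101 and 95.1 in full and 83, 97 and 102 in BEC. With longest protein-coding transcripts of similar length (1762 and 1689 bases for Acaa1a and Acaa1b), Acaa1b was above Acaa1a in CPM in each early library and below it in each of the other 9. Acaa1b was 27.3-fold lower in BEC than in early where Acaa1a was 3.25-fold lower. Reads from the shared sequence may be split or dropped in the authors' counting, so both values are uncertain.

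Acox2 and Acox3 encode oxidases that open the peroxisomal cycle. Acox2, which acts on branched chains and bile acid precursors, had 407, 383 and 307 CPM in early, 129, 150.1 and 139 in intermediate, 52.9, 50.3 and 46.7 in full and 88.3, 96.5 and 102 in BEC. The full libraries were lowest and all 3 BEC libraries stood above them. After falls of -1.39 ± 0.11 and -1.48 ± 0.11, it was the only member called higher in BEC than in full (0.94 ± 0.11, adjusted p = 4.28e-05, edgeR), in every fit run. Acox3, the oxidase of pristanoyl-CoA, had 47.3, 46.6 and 42.8 CPM in early, 44.5, 41.3 and 43.1 in intermediate, 40.8, 35.9 and 32.1 in full and 46.9, 39.6 and 39.8 in BEC. Intermediate and full did not overlap, and the other neighbours did. BEC against early was -0.11 ± 0.11 for Acox3 (adjusted p = 0.344, edgeR) with TMM and 0.75 with total counts alone, and its second step was called only with the replicate block (-0.25, adjusted p = 0.0308) or without full replicate 1 (-0.34).

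Crot, which makes carnitine esters of medium chains leaving the peroxisome, had 529, 459.6 and 401 CPM in early and 385, 408 and 436 in intermediate, 210.2, 193 and 212 in full and 185, 147 and 148 in BEC. Early and intermediate overlapped, and the second step was the large one (-1.0 ± 0.12, adjusted p = 1.92e-05, edgeR). BEC was lower than full (log2 -0.36), with an adjusted p of 0.0481 (edgeR), a call lost without any 1 library other than early replicates 1 and 3 and BEC replicate 1 (-0.40 to -0.30), with median-of-ratios factors (-0.35) or with a mean of at least 50 counts (-0.34). Abcd3, a transporter of acyl-CoA into the peroxisome, went from 397 ± 76.6 CPM to 187 ± 23, 129 ± 4.22 and 141 ± 16.2, and Pex11a, which takes part in peroxisome division, from 54.5 ± 4.34 to 23.8 ± 3.16, 14.8 ± 0.392 and 16.2 ± 2.23 (SD, n = 3 each). Both fell at the first and the second step, with values of -1.08 and -0.53 for Abcd3 and of -1.20 and -0.68 for Pex11a. The second-step call of Abcd3 was lost with total counts alone (-0.33).

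In the ketone route, Bdh1 fell along the stages, while Oxct1, which serves the use of ketone bodies, rose. Bdh1, which turns acetoacetate into 3-hydroxybutyrate, had 286, 215 and 304 CPM in early, 84.9, 76.3 and 86.2 in intermediate, 46.3, 37 and 46.9 in full and 39.5, 34.1 and 34.8 in BEC. It fell, with changes of -1.70 ± 0.13 and -0.93 ± 0.13 at the successive steps, and full overlapped with BEC. Among genes outside the 37, Acat1, the thiolase at both ends of ketone metabolism, was 5.55-fold lower in BEC than in early. Oxct1, the transferase by which tissues other than the hepatocyte use ketone bodies, had 3.08, 2.91 and 3.48 CPM in early, 44.2, 23.8 and 24.7 in intermediate, 88.8, 87.8 and 98 in full and 105, 100.1 and 99.98 in BEC. Intermediate replicate 1 was the highest of its group, and early stood clear below all others. Its first step was 3.28 ± 0.23 and BEC against early 5.00 ± 0.23 (adjusted p = 2.32e-10, edgeR). Slc16a7, a monocarboxylate carrier, was 15.3-fold lower in BEC than in early, and lowest in full, with 4.72 to 7.57 CPM there against 10.8 to 15.3 in BEC (log2 1.13, adjusted p = 0.000531, edgeR). Of the 9 other ketone genes listed, 6 were called lower, 2 higher and 1 not called between BEC and early. There 33.0% of all genes were called lower and 40.0% higher.

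**Figure D3:**
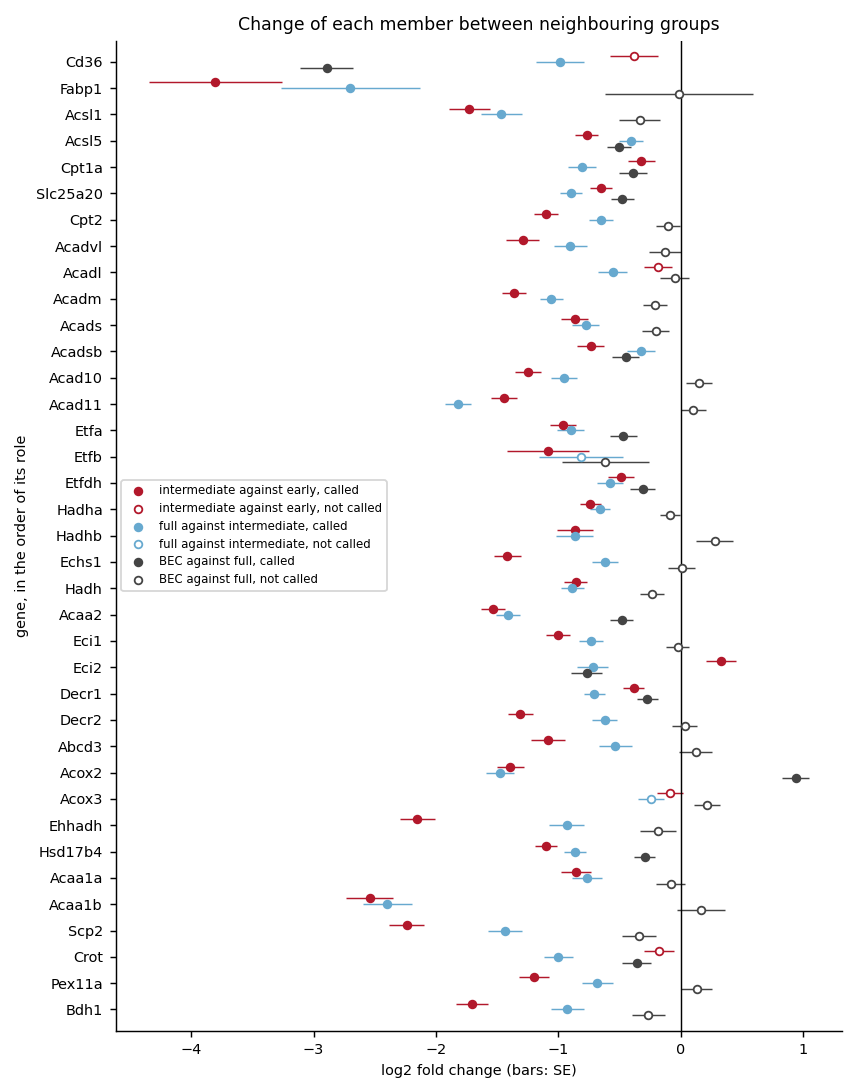
Log2 fold change with its SE for each of the 37 members, intermediate against early in red, full against intermediate in light blue and BEC against full in grey, filled where called and open where not, on the TMM scale. Red and blue points lie left of 0 except Eci2 at the first step, most grey points lie near 0, and Cd36 (left) and Acox2 (right) are the grey points farthest from it.

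By the full stage most members had come close to their BEC level. For the 35 members called lower in BEC than in early by at least 1 on the log2 scale, the share of that change already present was computed. Its median was 49.7% in intermediate and 91.5% in full, close to 51.2% and 88.5% for all 3185 such genes. The shares are on the TMM scale and were not computed with total counts alone. The smallest shares in intermediate were those of Eci2 (-28.5%), Cd36 (9.15%), Crot (11.1%) and Cpt1a (21.0%). In full they were those of Eci2 (33.2%), Cd36 (33.3%), Acsl5 (69.9%), Acadsb (70.1%) and Etfb (71.1%). Acox2 had 71.9% in intermediate, close to the highest value there (72.4%, Abcd3), and the highest in full (148.7%), where its level lay below BEC. Median changes in the order first step, second step and BEC against full were -0.91, -0.81 and -0.22 for the 20 mitochondrial members and -1.20, -0.86 and 0.03 for the 13 peroxisomal ones. Among those with a share, the peroxisomal medians were 54.2% in intermediate and 98.3% in full, against 48.3% and 89.1% for the mitochondrial. No test of that difference was made.

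Of the 13 calls between BEC and full, 7 were made in every fit run, for Cd36, Slc25a20, Acaa2, Eci2, Etfa, Acsl5 and Acox2, and 6 were lost in at least 1. The number of members called fell to 8 when full replicate 1, full replicate 3, BEC replicate 2 or BEC replicate 3 was left out. It rose to 16 with the replicate block, which added Hadh, Acsl1 and Scp2. In the fit of the 6 libraries it rose to 17, with Acadm added as well. Calls over all genes moved the same way, from 3445 to between 2644 and 2886 without those libraries. They were 4096 with the block and 4086 in the fit of the 6 libraries. The 24 members not called had values from -0.62 (Etfb) to 0.28 (Hadhb), and a missed threshold does not show that the 2 populations have equal levels.

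Levels per length of transcript allow members to be ranked against each other. In CPM per kilobase of the longest annotated transcript of any type, Scp2 (989.7 ± 155), Fabp1 (815 ± 281) and Acaa2 (424 ± 32.5) led in early libraries (SD, n = 3 each). In BEC the order was Acadl (76 ± 9.28), Scp2 (61.4 ± 6.82) and Crot (53.3 ± 7.28), whose SDs overlap between neighbours. Fabp1 went from rank 2 to rank 29 and Acaa1b from rank 4 to rank 28, while Acadl went from rank 9 to rank 1 and Cpt1a from rank 10 to rank 4. Some of the longest transcripts retain introns. Per kilobase of the longest protein-coding transcript, an alternative chosen after seeing the data, Fabp1 went from rank 2 to rank 30, Acaa1b from 4 to 28, Acadl from 12 to 1 and Cpt1a from 13 to 6. On that scale Acaa1a (53.4 ± 5.63) lay beside Crot in BEC.

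The regulators of this route were mostly lower too, with exceptions. Ppara, the fatty acid receptor, had 109, 139 and 155 CPM in early, 29.2, 42.9 and 41.5 in intermediate, 5.79, 6.91 and 7.43 in full and 2.36, 3.87 and 4.39 in BEC, each group clear of the others (-5.24 ± 0.23 between BEC and early, adjusted p = 1.37e-10, edgeR). Creb3l3, a hepatocyte factor of fasting lipid genes, had 447, 383 and 412 CPM in early, 258, 275 and 258 in intermediate, 81.8, 68.5 and 80.7 in full and 9.3, 8.95 and 10.5 in BEC. Ppard, the widely expressed relative of Ppara, had 15.4, 16 and 16.3 CPM in early, 17.4, 14.6 and 16.4 in intermediate, 23.6, 24.4 and 24 in full and 56.2, 57.9 and 62.5 in BEC. Early and intermediate overlapped, and BEC was above full by 1.29 ± 0.09 (adjusted p = 4.41e-07, edgeR). Pparg went from 28.5 ± 4.23 CPM in early to 7.38 ± 1.06 in BEC. Ppargc1a, a coactivator of oxidative genes, went from 25.2 ± 1.28 to 16.5 ± 3.38 (SD, n = 3 each), lower (-0.61) with TMM, where total counts alone gave 0.26. Of the 13 regulators listed, 10 were called lower and 2 higher in BEC than in early, with a median of -2.33. Of all genes tested, 33.0% were lower and 40.0% higher.

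**Figure D4:**
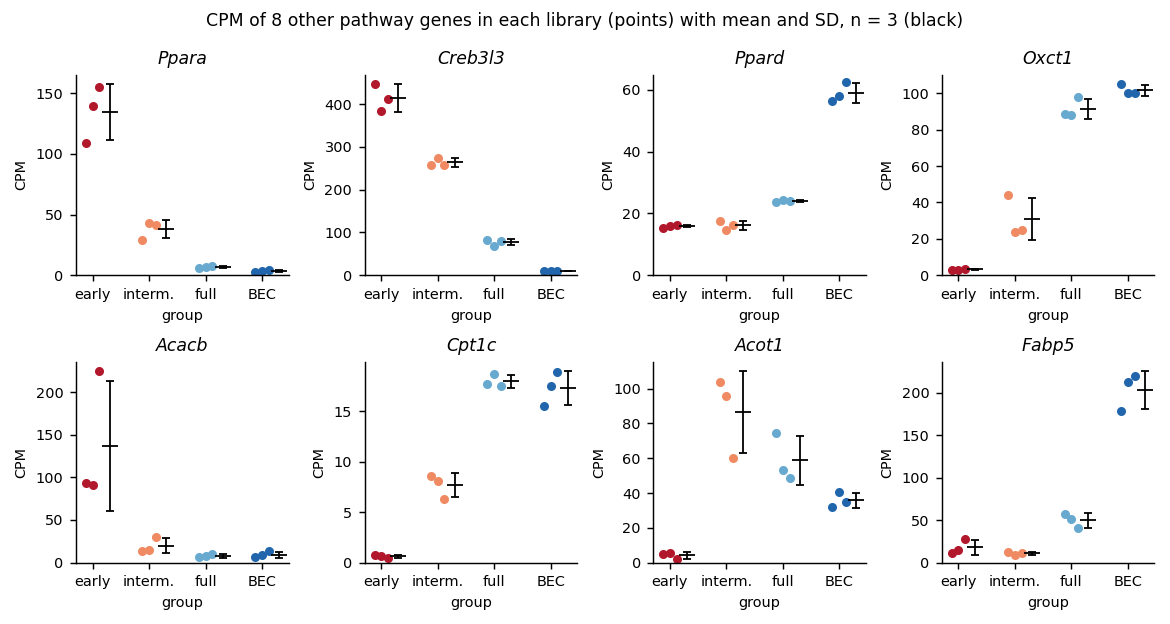
CPM of 8 genes outside the 37 members in each library (points) by group, with the mean and SD of 3 libraries in black and each axis starting at 0. Ppara and Creb3l3 are lowest in BEC, Oxct1 and Cpt1c ascend from early to full, Ppard and Fabp5 are highest in BEC, Acot1 peaks in intermediate, and Acacb has 1 high early library.

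Known PPAR alpha targets outside oxidation were examined as well. Of 12 listed, 11 were lower and 1 higher in BEC than in early, with a median of -2.39, where 33.0% of all genes were lower and 40.0% higher. Between early and intermediate 5 were lower, 1 higher and 6 not called, where 25.7% of all genes were lower and 28.7% higher. Cyp4a10 and Cyp4a14, omega-hydroxylases of fatty acids, were at 4.46 to 6.07 and 2.27 to 4.83 CPM in early and at or near the floor of 3 counts in full and BEC. Pdk4, which shuts off pyruvate oxidation, was at 23, 17 and 17.1 CPM in early and 6.99, 3.54 and 3.56 in BEC. Plin2, a coat protein of lipid droplets, was at 432, 312 and 289.5 CPM in early, 417, 356 and 309 in intermediate, 202, 145 and 149 in full and 99.4, 80.3 and 71.2 in BEC, overlapping in the first pair of groups. Angptl4, an inhibitor of lipoprotein lipase, was 6.62-fold lower in BEC than in early.

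Acot1, a cytosolic thioesterase that splits acyl-CoA, went the other way, with 4.9, 5.64 and 1.94 CPM in early, 104, 95.9 and 59.95 in intermediate, 74.6, 53.2 and 48.4 in full and 32, 40.7 and 34.5 in BEC. All later libraries stood above early (4.39 ± 0.32 at the first step, adjusted p = 8.31e-08, edgeR). Its longest protein-coding transcript is 94.3% identical to that of Acot2 over 1330 aligned bases, so the counts of both are uncertain.

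Other genes of acyl-CoA handling were mostly lower. Of 21 listed, 20 were tested, and 17 were lower and 2 higher in BEC than in early, with a median of -3.33. The shares of all genes in that comparison were 33.0% lower and 40.0% higher. Slc27a2 and Slc27a5, acyl-CoA synthetases of very long chains and of bile acids, were 98.6-fold and 82.4-fold lower in BEC than in early. Acaca and Acacb make malonyl-CoA, the inhibitor of Cpt1a, and Mlycd removes it. All of these were lower in BEC, Acaca by 6.01-fold, Acacb by 14.9-fold and Mlycd by 5.73-fold. Acacb was uneven in early, at 93.2, 91.6 and 225 CPM, and at 14, 15.2 and 30.4 in intermediate, with replicate 3 highest in both groups and no overlap between them (-2.78 ± 0.40, adjusted p = 4.99e-05, edgeR). All 6 other enzymes that feed the electron transfer flavoprotein were lower in BEC than in early, against 33.0% of all genes. Among them Dmgdh was 88.3-fold and Sardh 13-fold lower, both of choline breakdown.

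Isozymes typical of other tissues were examined beside the members. Of 14 listed, 11 were tested, and 4 were lower, 5 higher and 2 not called in BEC against early, where 33.0% of all genes were lower and 40.0% higher. Cpt1c, the brain form of carnitine palmitoyltransferase, had 0.712, 0.637 and 0.486 CPM in early, 8.55, 8.11 and 6.34 in intermediate, 17.7, 18.7 and 17.5 in full and 15.5, 17.5 and 18.9 in BEC. It rose by 3.63 ± 0.22 at the first step, and even in BEC its mean of 17.3 CPM was small beside 194 for Cpt1a, though transcript length differs between them. Cpt1b, the muscle form, had only 5 to 14 counts per library and was not called (-0.19 ± 0.44). Fabp5, the epithelial binding protein, had 11.2, 14.8 and 28.2 CPM in early, 12.6, 9.1 and 11.3 in intermediate, 57.5, 50.7 and 40.6 in full and 178, 213 and 219 in BEC, where BEC was above full by 2.04 ± 0.24 (adjusted p = 3.93e-05, edgeR). Macrophages also express Fabp5. Beside the values given above, the macrophage sum was 30.5 to 40.3 CPM in intermediate and 66.0 to 94.2 in full. Its rise was mostly that of Csf1r, with means of 3.942 CPM in early, 24.62 in intermediate, 67.81 in full and 126.7 in BEC. Cd68 went the other way, from a mean of 13.96 CPM in early to 3.462 in BEC. Of the 9 macrophage markers tested, 1 was called higher, 1 lower and 7 not called between BEC and early. The part of macrophages in the Fabp5 level was not tested. Fabp4, the adipocyte form, reached 1.58 CPM at most and failed the filter, and Fabp2, the intestinal form, was at 13.2 to 23.4 CPM in early and 0.14 to 0.777 in BEC. Acsl3 and Acsl4 were 2.2-fold and 2.27-fold lower in BEC than in early, calls that were lost with total counts alone (log2 -0.27 and -0.32).

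Genes of the organelles themselves were lower as well. All 15 peroxisome assembly genes tested were lower in BEC than in early, where 33.0% of all genes were lower and 40.0% higher. Their median was -1.26, and the import receptors Pex5 (-2.39) and Pex7 (-2.07) were among them. All 20 tested genes of general mitochondrial content were lower too, against the same 33.0% of all genes, with a median of -1.46. They ran from Hspd1, the chaperone (-2.08), and Cox5a, a subunit of complex IV (-2.05), to citrate synthase, Cs (-0.49). With total counts alone Cs turned to 0.38, while Hspd1, Cox5a, Pex5 and Pex7 kept their sign. Between full and BEC the medians were -0.08 for peroxisome assembly and -0.06 for mitochondrial content.

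The first step depended on how libraries were scaled. With total counts alone the median of all genes tested moved from 0.06 to 0.72 for intermediate against early, and from 0.14 to 1.0 for BEC against early. At the first step 20 members were then called lower and 6 higher (Cpt1a, Acadl, Eci2, Decr1, Acox3 and Crot), where 10% of all genes were lower and 59.4% higher. The calls of Acads, Acadsb, Hadha, Hadhb, Hadh, Acaa1a, Acsl5 and Etfb were lost without a change of sign (-0.42 to -0.073). Scaling moves all genes together, so the place of the members relative to the median of all genes, with 36 of 37 below it and Eci2 above, does not depend on it and is no further support. At the second step all 37 values were negative under both scalings. Between BEC and early 35 were called lower with total counts alone, where 16.2% of all genes were lower and 65.8% higher. Acox3 was called higher there, and Acadl was positive and not called.

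**Figure D5:**
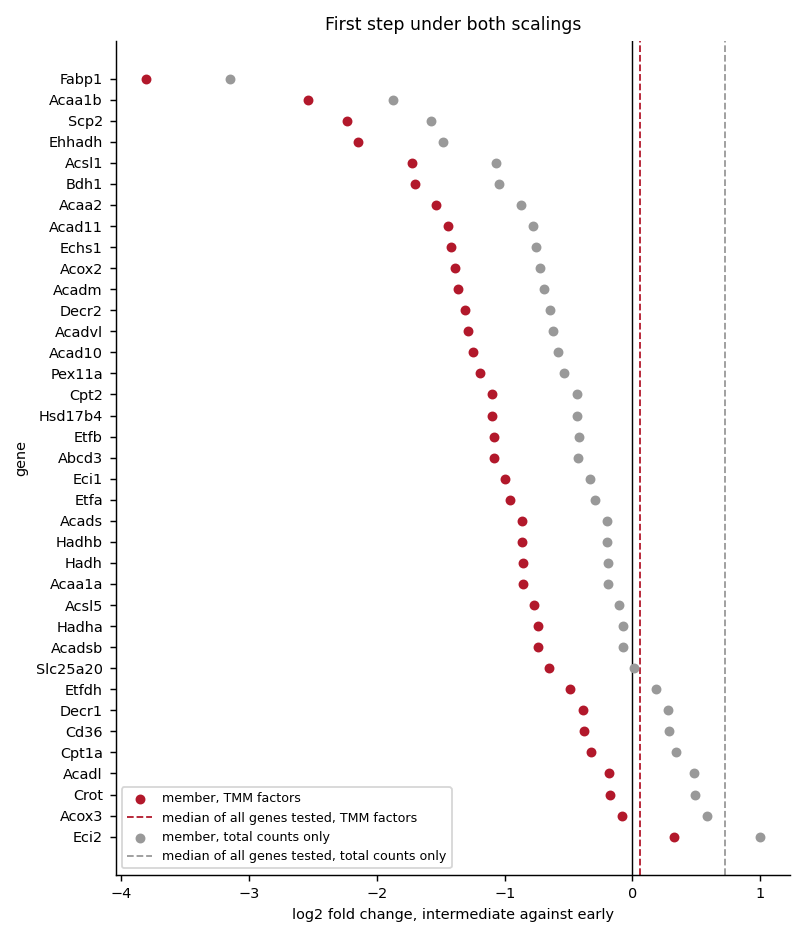
Log2 fold change of each member between intermediate and early with TMM factors (red) and with total counts alone (grey), dashed lines marking the median of all genes tested at 0.06 and 0.72. Every grey point lies to the right of its red point by a similar distance, 9 members cross or lie above 0 with total counts alone, and Eci2 is the only member above the line of its own colour.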

How the data were processed

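Per the submitters' processing notes, the authors used STAR 2.7.10b, featureCounts 2.0.1, DESeq2 and the genome build GRCm39. RNA came from the Nucleospin kit and libraries from a sequencing provider, per the labels. Annotation, strand setting and treatment of shared reads are not given in the sources used here. The deposited counts per gene (53599 genes, 12 libraries) were used for all results. The second deposited table, a signal equal to the counts divided by 1 factor per library, served only as a check.

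Counts were fitted with edgeR 4.0.16 (R 4.3.3) in 1 model of all 12 libraries with a term per group, TMM factors, the filterByExpr filter (16210 genes kept) and quasi-likelihood tests, Benjamini-Hochberg adjusted over all genes tested at 0.05. The common biological coefficient of variation was 14.8%. A floor of 3 counts equals 0.128 to 0.273 CPM, for counting error only. The procedure was also run on simulated counts in which a small set of genes was changed in the intermediate group. Those counts had no shift of all genes, so they do not test the scaling at the first step.

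The members, the lists of other genes and the rule for naming them were chosen with earlier results of these data known. The rule names all members, 24 listed genes (4 of them are not reported here) and, in each of 8 lists of other genes, up to 2 called genes with the largest change between BEC and early and at least 10 CPM in the higher group. Gene overlap and length came from GENCODE M21 (GRCm38), not the authors' build, and promoters from RefSeq (GRCm38.p6). No protein sequences were used here.

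Labels number the replicates 1 to 3. Deviations of same-numbered libraries correlated across genes with r of 0.121 to 0.293 for intermediate and early. For full and intermediate r was 0.137 to 0.322, for BEC and full 0.170 to 0.257 and for BEC and early 0.0442 to 0.145. What the numbers mark is not stated. Libraries with different numbers were not compared, so these values do not settle whether the numbers pair libraries. The main model has no term for the numbers. Alternatives covered DESeq2 1.42.0, median-of-ratios factors, total counts only, no filter, a mean of at least 50 counts, a replicate block, fits of 6 libraries and 12 fits leaving out 1 library each.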

Additional observations from a re-analysis of the deposited data

How the results depend on the processing

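Of 3170 alternative fits of 167 gene results, 3074 kept direction and side of the threshold, 73 lost the call, 8 gained one and 15 reversed. These leave out the 24 members not called between BEC and full, for which 10 alternative fits made a call, of Scp2, Hadh, Acsl1, Acadm or Etfb. Total counts only accounted for 13 of the reversals, by the shift of all genes given above. At the first step they were Cpt1a (0.34), Slc25a20 (0.016), Acadl (0.48), Decr1 (0.28), Acox3 (0.58), Etfdh (0.18), Crot (0.49) and Cd36 (0.29). Between BEC and early they were Acadl (0.078), Acox3 (0.75), Ppargc1a (0.26), Cpt1b (0.66) and Cs (0.38). Cpt1b, at 5 to 14 counts per library, ranged from -0.44 to 0.10 when 1 library was left out, positive without early replicate 2 (0.10) or BEC replicate 2 (0.03).

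The member median moved to -0.42 (total counts only), -1.14 (median-of-ratios factors) and -1.12 to -0.97 (1 library left out) at the first step, and to -0.66 (total counts only) at the second. For BEC against early it was -1.06 with total counts only, -1.91 without the filter or with a mean of at least 50 counts, -1.98 with 6 libraries, -1.93 in DESeq2 and -1.97 to -1.91 with 1 library left out. Members called between BEC and full ranged from 8 to 14 with 1 library left out, and calls over all genes from 2644 to 3860. The member median there ranged from -0.26 to -0.18. Total counts only also moved the share of calls that were higher, over all genes, from 52.8% to 85.6% at the first step, from 51.2% to 72.6% at the second and from 54.8% to 80.3% for BEC against early.

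With the replicate block, 34 members were called at the first step and 36 at the second. Between BEC and full 16 were called, and between BEC and early 36. Of all 16210 genes tested, the block gave 9274, 7300, 4096 and 12122 calls in that order, against 8817, 6590, 3445 and 11842 without it. Beside the calls gained by Cd36, Acox3, Hadh, Acsl1 and Scp2 the block changed no other member's call.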
